A study of Mus musculus with 6 samples.

Results

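The 38 genes described here act in homologous recombination, in the Fanconi anaemia pathway of crosslink repair and in the ATR checkpoint. They were listed by function, with earlier results of these data known. Each was read from the probe set of its symbol with the highest mean over the 6 arrays. Of the 38, 36 could be read in this way, among 18194 genes in all. Xrcc2 and Rbbp8 have no probe set named with their symbol alone in the annotation used and are not analysed here. RNA came from CT26, a cell line from a colon carcinoma of the BALB/c mouse strain. The shSep15 cells (3 arrays) had received the plasmid pU6-m3 with a short hairpin against Sep15, the 15 kDa selenoprotein, and the control cells (3 arrays) the same plasmid without an insert. The hairpin was built on a single stretch of 19 bases of the Sep15 cDNA, so 1 construct stands for the knockdown, and the labels do not say whether the cells were clones or pools.

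The stretch of Sep15 cDNA that the hairpin carries, shown because the knockdown rests on it, is taken from the labels.
Sep15 target: acagaagagttccatttaa

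Double-strand breaks and broken replication forks can be repaired by copying an intact sister chromatid. The broken end is first resected to single-stranded DNA, where BRCA1, PALB2 and BRCA2 act to start the search for the sister, and helicases, translocases and nucleases then shape and resolve the joined molecules. The Fanconi core complex attaches ubiquitin to FANCD2 and FANCI at crosslinks that bind both DNA strands, and the kinase ATR, brought to single-stranded DNA by ATRIP, signals through CHEK1. Transcription of many of these genes is known to peak as cells replicate their DNA.

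The labels held for the targeted gene. Selenof, the current symbol of Sep15, read 9.34, 9.59 and 9.50 (log2 RMA values) on the shSep15 arrays, against 12.41, 12.44 and 12.35 on the control arrays, and fell by 2.92 (SE 0.08, limma adjusted p = 2.43e-07). Its dimmer probe set lay under the background level of 6.02 in both groups and gives no reading. That level is the upper range (95th percentile) of 78 probe sets of odorant and pheromone receptor genes, which serve as genes not expected in these cells. Of 12 markers of colon epithelium, 7 were under it in both groups, Cdh1, Cdx2 and Vil1 among them, whereas 9 of 10 mesenchymal markers were above it in either group. Endothelial markers were near or under background, with 5 of 6 below the level in both groups, and so was Ptprc, the pan-leukocyte antigen. Of 9 leukocyte markers, however, 3 or 4 were above the level on each array. Csf1r averaged 7.20 in shSep15 and 7.11 in control cells, Lyz2 6.58 and 7.05, and Cd3e 6.39 and 6.26. Cd68 was above the level in control cells only, at 7.47. Within these lists single genes differed. Krt18, Krt20 and Lgals4 fell by 2.16, 2.13 and 1.00, and the other 9 epithelial markers differed by −0.21 to 0.02 and did not pass the test. The mean level of the epithelial list ran from 5.37 to 5.54 on the shSep15 arrays, against 5.86 to 6.03 on the control arrays, and that of 9 leukocyte markers from 5.67 to 5.80 on the shSep15 arrays, against 5.86 to 6.03 on the control arrays. Among the leukocyte markers Cd68, Lyz2 and Itgam fell, by 1.48, 0.47 and 0.37, and none rose. The mean level of the mesenchymal list ran from 9.60 to 9.90 on the shSep15 arrays, against 10.03 to 10.10 on the control arrays. In that list Pdgfrb, Col3a1 and Zeb1 fell by 3.36, 2.27 and 0.61, Pdgfrb to a mean under background, whereas Col1a1, Col1a2, Cdh2 and Vim rose by 1.32, 0.64, 0.50 and 0.23. The part of these shifts in the differences of the members was not tested. The array labelled shSep15 3 stood apart in interferon-stimulated genes: 9 markers had a median of 1.84 over the control mean there, against −0.28 and 0.09 on shSep15 1 and 2.

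Genes of recombination and crosslink repair were mostly higher in shSep15 cells. Of the 36 members, 22 rose and 1, the helicase gene Recql4, fell (limma, Benjamini-Hochberg adjusted p under 0.05 over all probe sets), and 13 did not pass the test. Over all genes, 12.2% rose and 12.8% fell by the same rule. The members' median log2 difference, shSep15 minus control, was 0.55, against 0.01 over all genes. At least 2-fold rises were found for 8 members, against 2.34% of all genes: Rad54l, Rad54b, Clspn, Brca1, Exo1, Chek1, Fanca and Nbn. No member fell 2-fold, as 3.09% of all genes did. In bulk RNA, more cells that express a gene and more of its RNA per cell cannot be told apart.

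The arrays of a group gave like pictures. For 26 members every shSep15 array lay above every control array and for 1 every shSep15 array lay below, where 19.3% and 18.7% of all genes were so separated. The median of the members over their control means was 0.67, 0.47 and 0.50 on shSep15 1, 2 and 3, and −0.06, 0.01 and 0.01 on control 1, 2 and 3. The members were thus higher on each shSep15 array, including the pair without the interferon signal. Without shSep15 replicate 3, 18 members rose and 1 fell, in a fit for which the share over all genes was not counted. Leaving 2 members near background in both groups aside, Bard1 and Rad51b, 21 of 34 rose and 1 fell, against 19.2% and 20% of the genes above background in either group. Of the 34, 3 had control means under background and passed this filter only through their shSep15 means: Rad54b and Brip1, which rose, and Fancg. The filtered count is therefore no separate support for the rises.

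**Figure D1:**
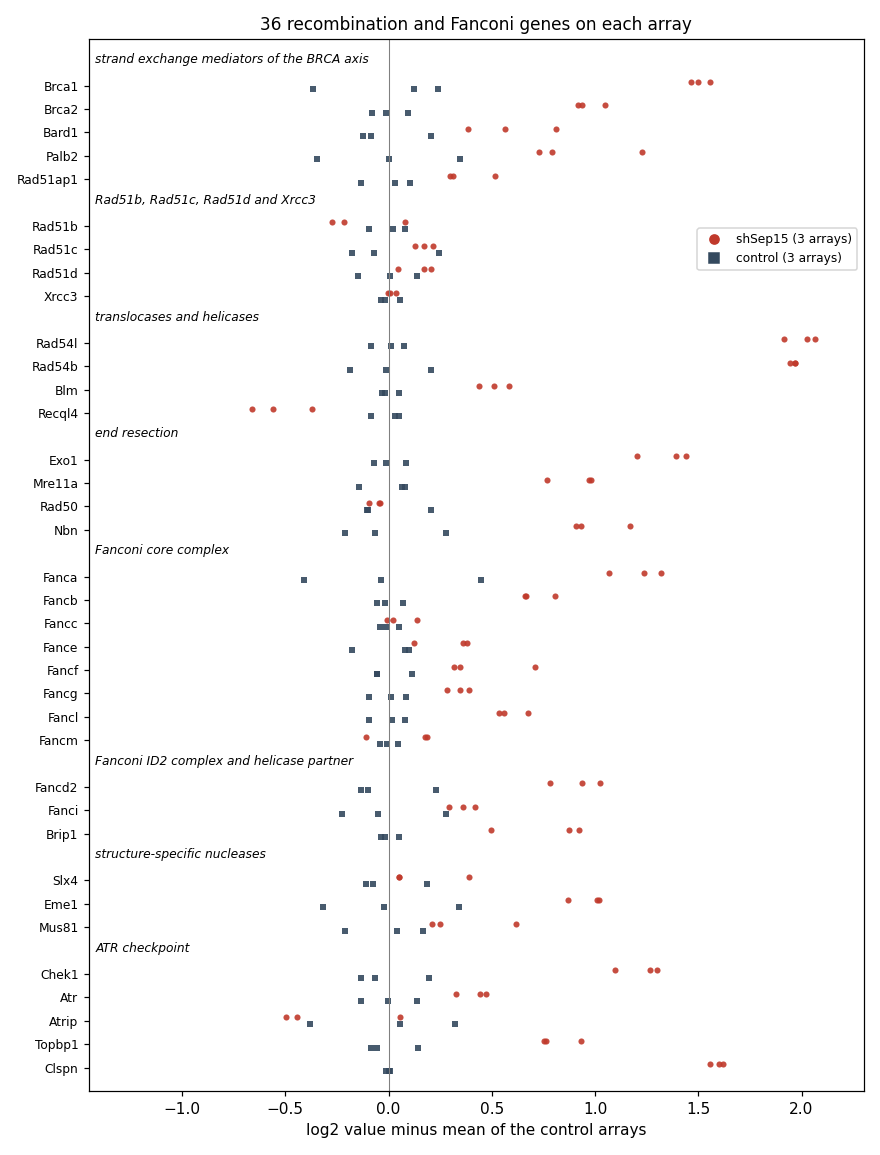
Each row is 1 gene and each point 1 array, as the log2 value minus the mean of the 3 control arrays of that gene. The shSep15 points (circles) lie to the right of all control points (squares) for 26 of 36 genes, to the left for Recql4, and among them for Rad51b, Rad51c, Rad51d and Xrcc3.

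Promoter sequence was examined because most members rose. The RefSeq table of promoter windows (GRCm38.p6), from 250 bases before to 50 after a gene's start, held 29 of the 38 members, with 32 windows. An E2F word was any of TTTCCCGC, TTTCGCGC, TTTGCCGC and TTTGGCGC, read on both strands, with matches at 1 position counted once. It was found in 7 of 32 member windows (21.9%), of 6 genes, against 2.26% of all 32851 windows of the same length and 3.20% of the windows of genes measured here. The words were in windows of 4 of 18 genes that rose and of 2 of 11 that did not pass the test, counts too small to compare. The CCAAT box, CCAAT on either strand, was in 62.5% of member windows and 37.4% of all windows, and the CHR word TTTGAA in 9.38% of member windows, 17.9% of all windows and 13.4% of the windows of genes measured here. The CCAAT box was in 63.2% of the windows of members that rose and in 61.5% of those of members that did not pass the test. A match describes the letters of a window and shows no binding.

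The E2F words are shown with 20 bases on each side, the word in capitals and the strand that of the gene. Among members that rose, they lie at chr1:71103154-71103201 (minus strand) for Bard1, chr5:150522433-150522480 (plus strand) for Brca2, chr9:103305178-103305225 (plus strand) for Topbp1 and chr4:126556981-126557028 (plus strand) for Clspn. Among members that did not pass the test, they lie at chr4:43010326-43010373 (minus strand) for Fancg, and at chr11:87404932-87404979 and chr11:87404468-87404515 (minus strand) for the 2 listed starts of Rad51c. The Bard1, Fancg and second Rad51c words read forward and the others in reverse complement.
Bard1: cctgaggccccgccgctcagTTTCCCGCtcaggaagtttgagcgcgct
Brca2: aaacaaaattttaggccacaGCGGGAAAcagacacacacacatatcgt
Topbp1: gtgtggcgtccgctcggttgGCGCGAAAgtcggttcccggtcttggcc
Clspn: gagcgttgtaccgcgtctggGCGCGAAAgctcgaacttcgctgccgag
Fancg: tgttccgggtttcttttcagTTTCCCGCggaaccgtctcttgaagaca
Rad51c, first start: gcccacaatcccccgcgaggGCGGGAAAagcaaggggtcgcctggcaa
Rad51c, second start: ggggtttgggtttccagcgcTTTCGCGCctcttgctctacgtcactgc

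Whole windows are shown for 3 of the members with the greatest rises, with E2F words and CCAAT boxes in capitals. They are Clspn at chr4:126556730-126557029 (plus strand), Rad54l at chr4:116123640-116123939 (minus strand) and Brca1 at chr11:101551906-101552205 (minus strand). Clspn holds an E2F word that begins at base 21 after its start and 2 CCAAT boxes, whereas Rad54l and Brca1 hold 1 CCAAT box each and none of the E2F words.
Clspn: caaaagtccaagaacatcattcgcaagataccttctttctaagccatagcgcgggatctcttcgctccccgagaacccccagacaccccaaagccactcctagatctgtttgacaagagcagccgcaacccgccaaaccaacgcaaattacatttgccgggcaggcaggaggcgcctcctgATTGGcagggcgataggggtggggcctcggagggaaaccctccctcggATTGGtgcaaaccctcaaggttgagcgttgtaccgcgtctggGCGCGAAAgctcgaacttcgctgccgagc
Rad54l: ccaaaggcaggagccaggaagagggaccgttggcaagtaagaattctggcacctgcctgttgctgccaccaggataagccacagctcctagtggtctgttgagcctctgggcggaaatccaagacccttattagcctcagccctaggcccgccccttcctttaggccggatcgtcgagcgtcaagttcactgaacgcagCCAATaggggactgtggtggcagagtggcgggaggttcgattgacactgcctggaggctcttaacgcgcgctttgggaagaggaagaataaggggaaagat
Brca1: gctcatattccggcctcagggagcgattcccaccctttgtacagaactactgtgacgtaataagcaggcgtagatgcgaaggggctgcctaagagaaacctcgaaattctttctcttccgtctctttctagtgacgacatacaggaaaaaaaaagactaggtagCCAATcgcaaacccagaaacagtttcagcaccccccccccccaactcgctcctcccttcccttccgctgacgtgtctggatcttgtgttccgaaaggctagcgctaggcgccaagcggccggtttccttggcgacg

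The genes of the BRCA axis, which act on resected DNA, all rose, 5 of 5, with a median log2 difference of 0.92. Brca1, a ubiquitin ligase that promotes resection, read 8.58, 8.64 and 8.54 on the shSep15 arrays, against 7.32, 7.20 and 6.72 on the control arrays. The shSep15 values lay close together and above all control values, which were spread more widely. The log2 difference was 1.51 (SE 0.16, limma adjusted p = 0.000205), a 2.84-fold rise. A pair of dimmer Brca1 probe sets rose by 0.89 and 1.22, the second from a control mean under the background level. Brca2, which acts on single-stranded DNA after resection, read 9.51, 9.62 and 9.49 in shSep15 cells, against 8.56, 8.49 and 8.66 in control cells. Every shSep15 value lay above every control value. Brca2 rose by 0.97 (SE 0.10, limma adjusted p = 0.000174). Palb2, the bridge between the BRCA1 and BRCA2 proteins, read 7.44, 7.01 and 6.95 in shSep15 cells, against 5.87, 6.56 and 6.22 in control cells, a difference of 0.92 (SE 0.20, limma adjusted p = 0.00991) with wider spread in both groups.

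The rises of Bard1 and Rad51ap1 were smaller and less firm. Bard1, the obligate partner of BRCA1, averaged 6.004 ± 0.21 in shSep15 cells and 5.42 ± 0.18 in control cells (SD, n = 3 each), both means under the background level, with a difference of 0.59 (limma adjusted p = 0.0175). Rad51ap1, which stimulates strand invasion, averaged 9.41 ± 0.12 in shSep15 cells and 9.04 ± 0.12 in control cells (SD, n = 3 each), a difference of 0.38 (limma adjusted p = 0.0408). Of its 3 other probe sets above background 1 rose, by 0.39. Under other settings of the fit the difference ran from 0.47 to 0.69 for Bard1 and from 0.31 to 0.43 for Rad51ap1, but both calls were lost under some. The call of Bard1 was lost without control replicate 1 or 3 or shSep15 replicate 1 or 3 (limma adjusted p = 0.0728, 0.0572, 0.0657 and 0.0590). That of Rad51ap1 was lost without any 1 array other than control replicate 3 (limma adjusted p from 0.0719 to 0.139).

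Rad51b, Rad51c, Rad51d and Xrcc3, which help recombination forward after resection, formed the 1 role group in which no member passed the test. Rad51c read 8.10, 8.15 and 8.06 in shSep15 cells, against 7.86, 7.75 and 8.18 in control cells. The groups overlapped because control 3 lay above every shSep15 array. Its log2 difference was 0.17 (95% interval −0.13 to 0.47, limma adjusted p = 0.468). Rad51d differed by 0.14 (−0.13 to 0.41), Xrcc3 by 0.01 (−0.21 to 0.24) and Rad51b, near background, by −0.14 (−0.40 to 0.13). Probe sets of these genes disagreed. A dimmer probe set of Rad51d fell by 0.45 (limma adjusted p = 0.0465), and the second Rad51c probe set differed by 0.47 (95% interval 0.02 to 0.93) without passing the test. The mean of the 2 Rad51c probe sets was higher by 0.32 and passed it (limma adjusted p = 0.0461).

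**Figure D2:**
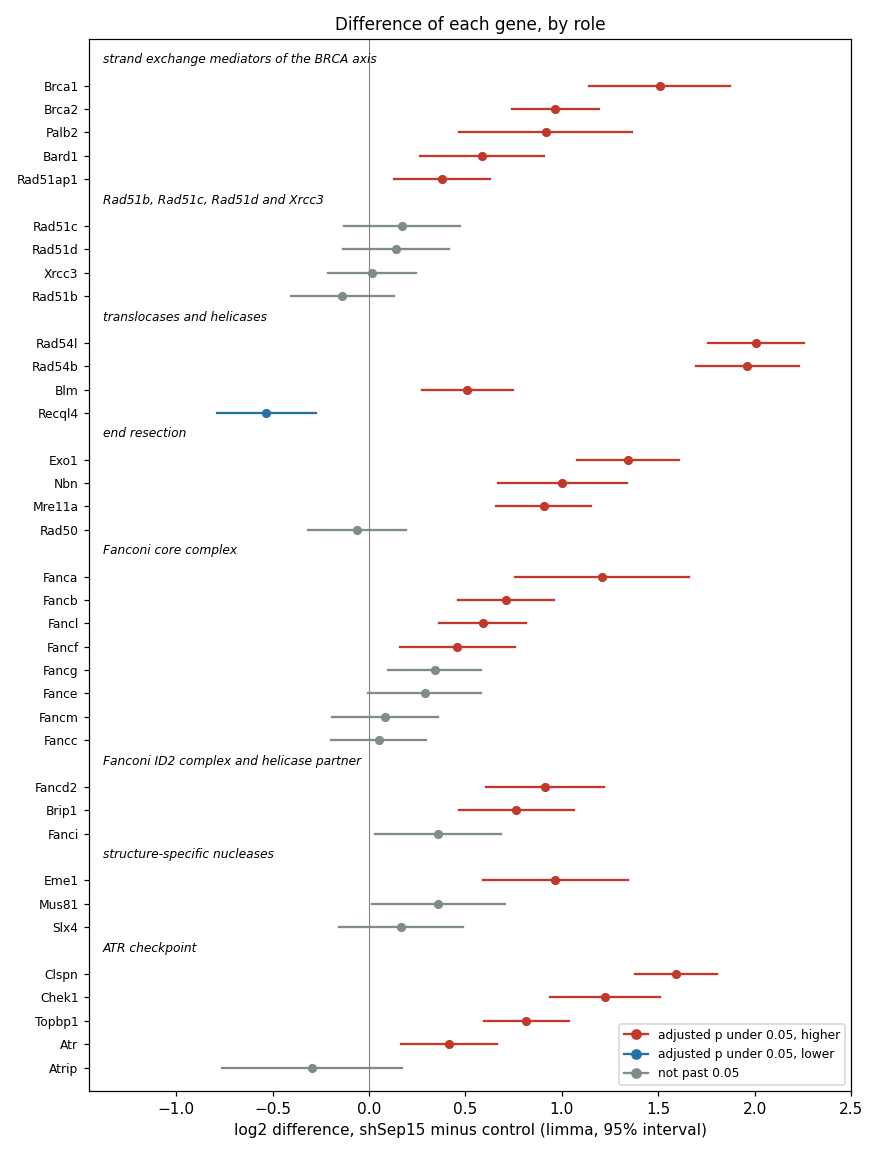
Points give the log2 difference, shSep15 minus control, of each of 36 genes, and lines its 95% interval from limma, ordered within 8 roles. Of the points, 22 lie to the right past the threshold, Recql4 lies to the left past it, and the intervals of Rad51b, Rad51c, Rad51d and Xrcc3 all span 0.

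The RAD54 translocases had the greatest rises of all members. Rad54l, which moves along DNA and drives strand exchange, read 8.84, 8.99 and 8.96 on the shSep15 arrays, against 6.84, 7.001 and 6.94 on the control arrays. Both groups were tight and lay far apart. The difference was 2.00 (SE 0.11, limma adjusted p = 5.85e-06), a 4.01-fold rise. Of its 3 other probe sets, all near background, 2 rose, by 0.57 and 0.66. Its relative Rad54b read 6.58, 6.56 and 6.58 in shSep15 cells, against 4.60, 4.82 and 4.43 in control cells, a difference of 1.96 (SE 0.12, limma adjusted p = 9.68e-06). The control values of Rad54b are under the background level, so the size of its rise is not exact.

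Of the RecQ helicase genes among the members, 1 rose and 1 fell, and the difference between them was not tested. Blm, which unwinds recombination intermediates and dissolves double Holliday junctions, read 8.50, 8.57 and 8.42 in shSep15 cells, against 7.97, 7.95 and 8.04 in control cells, and rose by 0.51 (SE 0.10, limma adjusted p = 0.00747). Recql4, a RecQ helicase with a role in starting replication, read 8.47, 8.66 and 8.37 in shSep15 cells, against 8.94, 9.06 and 9.08 in control cells. The groups did not overlap, and the gene fell by 0.53 (SE 0.11, limma adjusted p = 0.00919). Both are read by 1 probe set each. Of the RecQ genes beside the members, Recql rose by 0.70 (limma adjusted p = 0.00275), while Wrn and Recql5 differed by −0.01 and −0.15 and did not pass the test.

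Among genes of end resection, Exo1, Mre11a and Nbn rose and Rad50 did not pass the test. Exo1, the exonuclease of long-range resection, read 8.40, 8.45 and 8.22 in shSep15 cells, against 6.94, 7.004 and 7.10 in control cells, a 2.54-fold rise (log2 1.34, SE 0.12, limma adjusted p = 6.47e-05), and its 1 other probe set above background rose by 0.84. The products of Mre11a, Rad50 and Nbn form 1 complex that binds broken ends. Nbn, its signalling subunit, read 9.23, 8.99 and 8.97 in shSep15 cells, against 8.34, 7.85 and 7.995 in control cells, and rose by 1.00 (SE 0.15, limma adjusted p = 0.00121). Mre11a, its nuclease, read 9.92, 9.91 and 9.71 in shSep15 cells, against 8.80, 9.02 and 9.01 in control cells, and rose by 0.91 (SE 0.11, limma adjusted p = 0.000385). Both lay above all control arrays on all shSep15 arrays, but the other probe set of Mre11a above background differed by −0.16 and did not pass the test. Rad50, the ATPase that tethers the ends, read 9.17, 9.16 and 9.11 in shSep15 cells, against 9.11, 9.10 and 9.41 in control cells. Its groups overlapped, with a log2 difference of −0.06 (95% interval −0.32 to 0.19, limma adjusted p = 0.791), which turned to 0.04 without control replicate 3. So the transcripts of 1 complex differed by unequal amounts, and the difference between Rad50 and its partners was not itself tested.

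**Figure D3:**
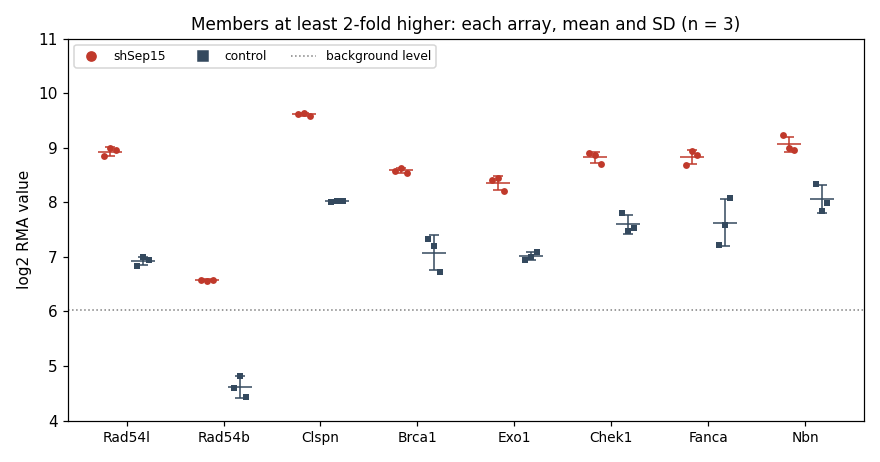
Log2 RMA values of the 8 members at least 2-fold higher in shSep15 cells, with each array as a point and the mean ± SD of 3 arrays beside it, shSep15 left of control for each gene. No shSep15 point overlaps a control point of its gene, and the control points of Rad54b lie under the background level of 6.02 (dotted line).

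In the Fanconi core complex 4 of 8 genes rose, none fell, and the median was 0.40. Fanca, which forms a subcomplex with FANCG, read 8.70, 8.95 and 8.86 in shSep15 cells, against 7.22, 7.59 and 8.08 in control cells. The control values covered a wide range that still lay below every shSep15 value, and the difference was 1.21 (SE 0.20, limma adjusted p = 0.00228). Its second probe set rose by 0.99 from control values under the background level, so that its size is not exact. Fancb averaged 8.11 ± 0.08 in shSep15 cells and 7.40 ± 0.06 in control cells, and Fancl 9.41 ± 0.07 in shSep15 cells and 8.82 ± 0.09 in control cells (SD, n = 3 each). These partners in the catalytic subcomplex in which FANCL is the ubiquitin ligase, rose by 0.71 and 0.59 (limma adjusted p = 0.00160 and 0.00263). Fancf, an adaptor of the complex, rose by 0.46 (limma adjusted p = 0.0383), and this call was lost without any 1 of the 6 arrays (limma adjusted p from 0.0525 to 0.117).

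The remaining core genes did not pass the test. Fancg read 6.36, 6.40 and 6.30 in shSep15 cells, against 6.10, 6.02 and 5.92 in control cells, close to background and just short of the threshold (log2 0.34, limma adjusted p = 0.0542). The groups of Fancg did not overlap, and its dimmer probe set rose by 0.48 (limma adjusted p = 0.0247), a size that is not exact because its control values are under background. Fance, the link to FANCD2, differed by 0.29 (95% interval −0.01 to 0.58), Fancm, the translocase that anchors the complex on DNA, by 0.08 (−0.19 to 0.36) and Fancc by 0.05 (−0.19 to 0.30).

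Downstream of the core, Fancd2 and Brip1 rose. Fancd2, 1 of the pair that receives ubiquitin, read 8.36, 8.44 and 8.20 in shSep15 cells, against 7.29, 7.65 and 7.32 in control cells, and rose by 0.91 (SE 0.14, limma adjusted p = 0.00131). Its second probe set above background rose by 0.60. Fanci, the other of the pair, read 7.45, 7.39 and 7.32 in shSep15 cells, against 6.80, 6.98 and 7.31 in control cells. Control 3 came close to the lowest shSep15 array, and the difference of 0.36 did not pass the test (95% interval 0.03 to 0.69, limma adjusted p = 0.134). Without control replicate 3 the difference was 0.50 and passed it (limma adjusted p = 0.0279). Brip1, a helicase that binds BRCA1, read 6.32, 5.89 and 6.27 in shSep15 cells, against 5.45, 5.36 and 5.38 in control cells, a rise of 0.76 (limma adjusted p = 0.00290) from control values under the background level, so that its size is not exact.

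Of the nucleases that cut branched DNA, 1 of 3 rose. Eme1, the partner subunit of MUS81, read 8.06, 8.05 and 7.91 in shSep15 cells, against 6.73, 7.02 and 7.38 in control cells, with no overlap and a difference of 0.97 (SE 0.17, limma adjusted p = 0.00288). Mus81, the catalytic subunit, read 8.14, 7.77 and 7.74 in shSep15 cells, against 7.57, 7.69 and 7.31 in control cells, a difference of 0.36 (95% interval 0.01 to 0.71, limma adjusted p = 0.155). Slx4, the scaffold for several nucleases, differed by 0.16 (−0.16 to 0.49, limma adjusted p = 0.523).

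In the ATR checkpoint 4 of 5 genes rose, with a median of 0.82. Clspn, the adaptor through which ATR activates CHEK1, read 9.62, 9.64 and 9.58 in shSep15 cells, against 8.01, 8.03 and 8.03 in control cells. Both groups were very tight, and the difference was 1.59 (SE 0.09, limma adjusted p = 8.98e-06), a 3.01-fold rise. A dim second probe set of Clspn differed by 0.24 and did not pass the test. Chek1, the effector kinase that restrains CDC25 phosphatases, read 8.90, 8.87 and 8.70 in shSep15 cells, against 7.80, 7.47 and 7.54 in control cells, a rise of 1.22 (SE 0.13, limma adjusted p = 0.000174), and its 1 other probe set above background rose by 1.04. Topbp1, which activates ATR directly, read 10.42, 10.43 and 10.60 in shSep15 cells, against 9.62, 9.59 and 9.81 in control cells, a rise of 0.82 (SE 0.10, limma adjusted p = 0.000368). No array of these 3 genes crossed between the groups.

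The other members of the checkpoint are the kinase and its partner. Atr, the kinase itself, rose by 0.41 (SE 0.11, limma adjusted p = 0.0278), with 9.07, 9.05 and 8.93 in shSep15 cells, against 8.74, 8.47 and 8.60 in control cells. This call was lost without any 1 array other than control replicate 1 (limma adjusted p from 0.0544 to 0.0979). It was also lost with the mean of the Atr probe sets (limma adjusted p = 0.217). The other Atr probe set above background differed by 0.10 and did not pass the test. Atrip, the partner of Atr, read 6.81, 6.26 and 6.31 in shSep15 cells, against 7.07, 6.81 and 6.37 in control cells, and the groups overlapped (log2 −0.29, 95% interval −0.76 to 0.17, limma adjusted p = 0.418).

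Of the 36 members, 25 have more than 1 probe set. Among their 43 other probe sets, 23 were above background in either group, and of these 9 rose, 1 fell and 13 did not pass the test. Of all dimmer probe sets of a gene above background, 17.4% rose and 18% fell. The 9 that rose belong to 8 members, Brca1, Rad51ap1, Exo1, Fanca, Fancg, Fancd2, Chek1 and Topbp1, of which Fancg was not called on its brightest probe set. Those of Fanca, Fancg and Topbp1, and the dimmer one of Brca1, had control means under background. They entered the count only through their shSep15 means, as did those of Fancb and Clspn, which were not called. No member was called in opposite directions by 2 probe sets.

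**Figure D4:**
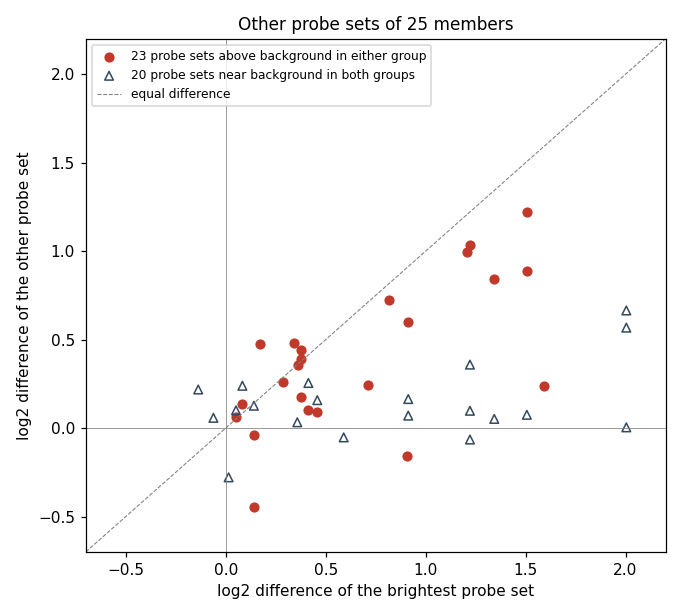
Each of 43 points sets the log2 difference (shSep15 minus control) of a dimmer probe set on the vertical axis against that of the brightest probe set of the same gene on the horizontal axis. Of the 23 probe sets above background in either group (filled circles) 20 lie above 0. The 20 near background in both groups (open triangles) lie between −0.28 and 0.66.

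The members lie on many chromosomes, and 5 of them on chromosome 4. Of those, Rad54l, Rad54b, Clspn and Nbn rose and Fancg did not pass the test, with a median of 1.59. Genes of chromosome 4 other than these members rose more often than they fell, at 21% against 5.64%, with a median of 0.06. Chromosomes 3, 17, 18 and X were set aside together with chromosome 4 in an earlier analysis of these data. Outside these 5 chromosomes, 17 of 29 members rose and 1 fell, with a median of 0.46. On the single chromosomes that hold those 29, 7.82% to 17.6% of the genes other than members rose and 8.13% to 16.3% fell.

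Further genes of these pathways rose more often than they fell. Among 60 measured ones listed beside the members, also with earlier results known, 26 rose and 6 fell, with a median of 0.37. These are 43.3% and 10%, where 12.2% of all genes rose and 12.8% fell, so the share of falls was near that of all genes. Among 29 other recombination genes 15 rose and 2 fell. Parpbp, known in human cells as a partner of PARP1, rose by 1.48, Mms22l, which acts in recombination at stalled forks, by 1.48, the meiotic recombination gene Mnd1, under background in control cells, by 1.36 and Rpa2, a subunit of the single-strand binding protein RPA, by 1.32. Rad52, a single-strand annealing protein, fell by 0.86 and the helicase gene Helq by 0.73 (limma adjusted p = 0.00499 and 0.00210), while the other probe set of Rad52 above background did not pass the test.

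Among 11 other Fanconi genes 4 rose and 2 fell, where 12.2% of all genes rose and 12.8% fell. Apitd1, now Cenps, whose product binds FANCM, rose by 1.26, Usp1, which removes ubiquitin from FANCD2, by 1.19 and the ubiquitin ligase gene Rad18 by 0.72. Ercc1, subunit of a nuclease that unhooks crosslinks, fell by 1.22 (limma adjusted p = 8.92e-06). Wdr48, the cofactor of USP1, fell by 0.43, a call lost without shSep15 replicate 2 (limma adjusted p = 0.0524). Of the 2 other probe sets of Ercc1 above background 1 fell too, and of the 2 of Wdr48 none was called.

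Among 20 other genes of damage signalling 7 rose and 2 fell, against 12.2% and 12.8% of all genes. Etaa1, a second activator of ATR, rose by 1.62 from a control mean under background. The fork protection partners Timeless and Tipin rose by 1.11 and 0.67. Chek2, the effector kinase of ATM, averaged 7.12 in shSep15 cells and 8.49 in control cells and fell by 1.36 (SE 0.15, limma adjusted p = 0.000251), opposite to the rise of Chek1. Uimc1, which brings a BRCA1 complex to ubiquitin at breaks, fell by 0.65 (limma adjusted p = 0.00102). Atm itself differed by 0.22 and did not pass the test.

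End joining, which ligates breaks without a template, is the main other route of break repair. Of its 8 measured genes, 2 rose and 1 fell, with a median of 0.18, where 12.2% of all genes rose and 12.8% fell. Counts from 8 genes are too small to set against these shares. Xrcc6, the KU70 subunit that binds ends, fell by 0.58 (limma adjusted p = 0.00309), whereas its partner Xrcc5 rose by 0.39 and the kinase gene Prkdc by 0.42. Under other settings of the fit the difference ran from 0.35 to 0.42 for Xrcc5 and from 0.37 to 0.48 for Prkdc, but both calls were lost under some. With 1 array left out, Xrcc5 was called without control replicate 3 only, and Prkdc without control replicate 1 only. Without any 1 other array the limma adjusted p ran from 0.0692 to 0.0913 for Xrcc5 and from 0.0645 to 0.0977 for Prkdc. Of 16 genes of origin licensing, which prepare DNA for replication, 11 rose and 1, Orc2, fell (−0.51), with a median of 0.69. Gmnn, the inhibitor of licensing, rose by 1.69 and the helicase subunits Mcm4 and Mcm7 by 1.34 and 1.09. Cdc6, which loads that helicase, rose by 2.17. Differences between these lists and the members were not tested.

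**Figure D5:**
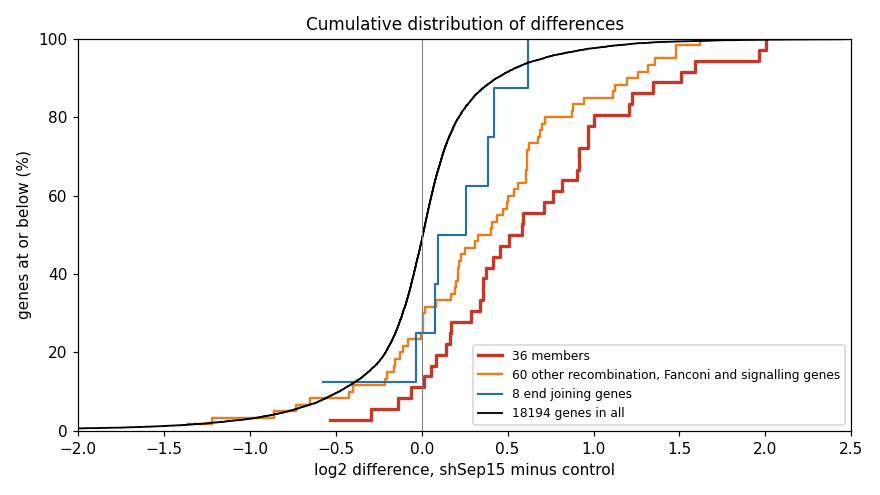
Lines give the percent of genes at or below each log2 difference, shSep15 minus control, for 36 members, 60 other genes of recombination, Fanconi and damage signalling, 8 end joining genes and all 18194 genes. The line of the members lies to the right of that of all genes, with medians of 0.55 and 0.01.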

How the data were processed

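Total RNA of 6 CT26 samples was extracted with TRIzol, and biotin-labelled cRNA was hybridised to 1 Affymetrix Mouse430_2 array each, per the labels' protocols. The deposited values are on a log2 scale, 1 per probe set and array, made by the authors with RMA (background correction, normalization between arrays, summary of probes) per the submitters' processing notes. Its version is not given in the sources used here. RMA compresses differences of dim probe sets and hides a change of total RNA per cell.

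Of 45101 probe sets, 64 array controls were left out and 45037 tested with limma 3.58.1 (R 4.3.3), group as only term and an intensity trend in eBayes. P-values were two-sided, adjusted by Benjamini-Hochberg over these probe sets, at a threshold of 0.05, and intervals are 95% for single probe sets. Names came from probe sets with 1 symbol (34945), and gene identifiers, chromosomes and promoters from RefSeq GRCm38.p6. Titles gave groups and replicate numbers. Nothing states that the mRNA samples came from separate cultures, so p-values measure the spread between these samples, which may be technical, and 3 arrays a group limit precision. Members and lists were chosen with earlier results of these data known. Of the lists beside the members, up to 4 called genes with the greatest difference were named, and every one called in the rarer direction. In the lists Fan1 and Dclre1c had no probe set with that symbol alone, and Stra13 matched no single gene. Those 3 are not analysed here, and 1 listed item is not reported here. On same-numbered samples, deviations from group means correlated at 0.38, −0.15 and −0.02, so the numbers were not used as pairs. The fit was run on simulated data with independent noise and few changed probe sets. That run checks the code only and does not bear on the calls in these data.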

Additional observations from a re-analysis of the deposited data

How the results depend on the processing

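Under other settings, apart from the lower count on other probe sets given below, between 18 and 23 members rose, against 22. The count was 23 without the intensity trend, 20 with arrays shifted to 1 median and 23 with quantile normalization repeated. It was 22 with array weights and 22 with dim probe sets removed before adjustment. With the mean of a gene's probe sets it was 21, and without any 1 array 18 to 20. The 1 fall, Recql4, was called under each of these. The share of all genes called was not counted under these settings. The removal of dim probe sets kept those above background in either group, also where only the shSep15 mean was, as for Rad54b, Brip1 and Fancg. Counted on any other probe set of a gene, which 25 of 36 members have, 9 members rose, and of the other pathway genes 13 rose and 2 fell, against 26 and 6 on the brightest. With the replicate number as a block (replicate block), 22 members rose and 1 fell, and 25 and 6 of the other genes, and Xrcc5 of end joining lost its call (limma adjusted p = 0.0542). Of the 23 called members, 18 kept their call and direction under each setting that fitted them, and Atr, Bard1, Fancf, Fancl and Rad51ap1 lost it under some, Fancl with the mean of probe sets (limma adjusted p = 0.0527). Of members not called, the sign turned with the mean of probe sets for Rad51b (0.0402), Rad51d (−0.0551) and Xrcc3 (−0.13), and without 1 array for Xrcc3 (range −0.0040 to 0.0415, negative without control replicate 1) and Rad50 (−0.1143 to 0.0412, positive without control replicate 3). Selenof differed by −2.85 to −2.98 without any 1 array and by −1.47 with the mean of its probe sets. The cause was not tested. The alternatives for genes beside the members were chosen after seeing the data. Members near background limit what size can be read.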
